A study of Homo sapiens with 22 samples.

Results

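In PC3 cells, 9932 of 24038 FOXA2-bound regions (41.3%) lay in accessible chromatin without a call for JUN or FOSL1. Members were selected on the deposited lists as vehicle PC3 FOXA2 regions that shared at least 1 bp with a PC3 ATAC-seq region and no base with a siNC PC3 JUN or FOSL1 region or with a FOXA2 region of vehicle-treated NCI-H660 cells. Their accessibility, their lack of a JUN, FOSL1 or NCI-H660 FOXA2 region, and their presence in the vehicle list are therefore given by the selection and are not results. The members are named FOXA2-only regions here, in the sense of these calls, and were set beside 9163 AP-1-bound regions, which were accessible, free of NCI-H660 FOXA2 and overlapped by JUN or FOSL1. The remaining vehicle regions were 2380 accessible regions that NCI-H660 shared and 2563 regions outside the ATAC list.

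The series profiled chromatin in established human prostate cancer cell lines, in 22 lists of enriched regions that form 21 groups. PC3 is androgen receptor-negative, NCI-H660 is a neuroendocrine line and LNCaP is a luminal androgen receptor-positive line. FOXA2 was immunoprecipitated in PC3 after vehicle, 10 µM ORY-1001 or 0.5 µM C12 for 4 h, both of which are inhibitors of the histone demethylase LSD1, in NCI-H660 after vehicle or 10 µM ORY-1001 for 4 h, in LNCaP cells made to express FOXA2 (FOXA2OE), and in 2 further vehicle PC3 ChIPs without a labelled antibody. JUN was profiled in PC3 and NCI-H660 after control (siNC) or FOXA2 (siFOXA2) siRNA, in LNCaP after siNC or siFOXA1, and in LNCaP FOXA2OE and FOXA2K265R cells, FOSL1 in PC3 after siNC or siFOXA2, H3K27ac and ATAC in vehicle PC3, and H3K4me2 and ATAC in NCI-H660. The siNC lists come from transfected cells whereas the FOXA2 lists do not. The PC3 ATAC and H3K27ac samples are titled vehicle, but their file names also carry a control siRNA, so whether these cells were transfected is not certain. Each group held 1 list apart from the 2 further FOXA2 ChIPs, so no test between conditions was possible and no p-value is given. The intervals below are 95% Wilson or Newcombe intervals, or normal-approximation intervals for standardised differences. They cover counting error only. Regions of 1 list are not replicates, and the lists give no read numbers, so depth is unknown.

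FOXA2 is a forkhead transcription factor and pioneer factor: its winged-helix domain can bind its DNA motif on nucleosomes, and it is best known from the development of endoderm-derived organs, among them the liver, the lung and the prostate. AP-1 is a dimer of a JUN with a FOS family protein, such as FOSL1, that binds a short palindrome and often occupies active enhancers together with lineage factors. H3K27ac marks active enhancers and promoters, ATAC-seq marks DNA that a transposase can reach, and LSD1 removes methyl groups from H3K4 and from some other proteins.

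The bases around the central forkhead match are shown for members of high FOXA2 score and for members in CCBE1 and TP63, because they contain what most members share and what some of them share with AP-1-bound regions. Capitals mark complete matches to the forkhead motif (TNTTTNN, where the first N is A or G, the second N is A or G and the last N is C or T, on either strand) and to the AP-1 motif TGACTCA on either strand. The sequences were read from GRCh37, the same build as hg19. The first 4 members below were called again under both inhibitors and the next 3 under neither. The last 2 lie in genes the study examined individually.
Intergenic, nearest gene ZNF365, chr10:64385370-64385470, plus strand: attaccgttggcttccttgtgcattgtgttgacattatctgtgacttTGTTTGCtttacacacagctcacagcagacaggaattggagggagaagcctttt
CTNNA3 intron, chr10:68675940-68676040, plus strand: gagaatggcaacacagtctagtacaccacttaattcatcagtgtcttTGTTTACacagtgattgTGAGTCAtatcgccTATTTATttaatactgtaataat
EPC1 intron, chr10:32639862-32639962, plus strand: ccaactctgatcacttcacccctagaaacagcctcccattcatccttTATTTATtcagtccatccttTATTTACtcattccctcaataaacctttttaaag
FUT8 intron, chr14:66060942-66061042, plus strand: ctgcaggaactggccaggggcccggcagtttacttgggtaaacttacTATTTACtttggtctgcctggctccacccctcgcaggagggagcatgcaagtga
KCNH5 intron, chr14:63267415-63267515, plus strand: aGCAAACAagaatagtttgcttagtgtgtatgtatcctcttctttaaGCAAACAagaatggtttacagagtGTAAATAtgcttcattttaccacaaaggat
ANKRD45 intron, chr1:173618517-173618617, plus strand: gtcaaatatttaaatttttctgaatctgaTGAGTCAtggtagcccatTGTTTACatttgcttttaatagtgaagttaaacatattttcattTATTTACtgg
Intergenic, nearest gene ZNF281, chr1:200305688-200305788, plus strand: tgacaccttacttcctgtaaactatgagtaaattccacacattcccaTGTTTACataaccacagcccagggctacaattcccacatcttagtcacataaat
CCBE1 intron, chr18:57357523-57357623, plus strand: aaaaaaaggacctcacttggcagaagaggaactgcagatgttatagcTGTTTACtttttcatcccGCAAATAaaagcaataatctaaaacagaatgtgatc
TP63 intron, chr3:189434057-189434157, plus strand: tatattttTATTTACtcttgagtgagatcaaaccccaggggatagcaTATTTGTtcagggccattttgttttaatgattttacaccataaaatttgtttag

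Most of these stretches hold more than the central forkhead match, the KCNH5 stretch 3 of them. The CTNNA3 and ANKRD45 stretches each also hold an AP-1 match, although no JUN or FOSL1 region was called there. A match is a statement about letters only.

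A forkhead motif lay within 100 bp of the centre in 83.8% of FOXA2-only regions (8322 of 9932, interval 83.1 to 84.5), against 71.9% of AP-1-bound regions, 36.8% of windows of the same length 2 kb away from the members and 29.9% of all PC3 ATAC regions. The excess over AP-1-bound regions was 11.9 percentage points (interval 10.7 to 13.1), and 11.5 points (9.98 to 12.9) after standardisation over FOXA2 score deciles and 5 equal bins of ATAC score together. It depended on the window: within 250 bp of the centre, 9271 of 9932 members and 7995 of 9163 AP-1-bound regions held a match, a smaller excess. The spelling TGTTTAC was the most frequent of the 8 spellings in the members and also the one with the widest gap between the classes, at 28.0% of members, 17.3% of AP-1-bound regions and 5.44% of ATAC regions. TATTTAC followed with 22.6%, 15% and 4.29%, whereas TATTTGC was found in 11.3% and 10.1%. Both frequent spellings end in AC and were the only spellings for which the classes differed by more than 5 points. Of the members, 40.4% held 1 match, 27.9% held 2 and 15.4% held 3 or more, and 1610 members held none. The median distance from the centre to the nearest match was 23 bp in members and 33 bp in AP-1-bound regions that held one within 250 bp.

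An AP-1 motif was present in 2037 FOXA2-only regions (20.5%, interval 19.7 to 21.3) despite the absence of a JUN or FOSL1 call. This was lower than the 39.8% of AP-1-bound regions (difference −19.3 points, interval −20.5 to −18.0), but above the 2.97% of windows 2 kb away and the 16.9% of all PC3 ATAC regions. The members were selected to lack JUN and FOSL1 calls, so the difference from AP-1-bound regions partly restates the selection. The AP-1 matches of the members were centred as well. In 20 bp bins they fell from 31.8 per 1000 regions just right of the centre to 3.62 per 1000 at the right end of the 250 bp searched. In AP-1-bound regions the corresponding values were 63.5 and 8.08. Within the members, 16.3% held both motifs, 67.5% the forkhead motif alone, 4.20% the AP-1 motif alone and 12% neither. The last group had the lowest median FOXA2 score (95) and was found in both further FOXA2 ChIPs in 86.5%, against 94.1% of members with the forkhead motif alone.

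**Figure D1:**
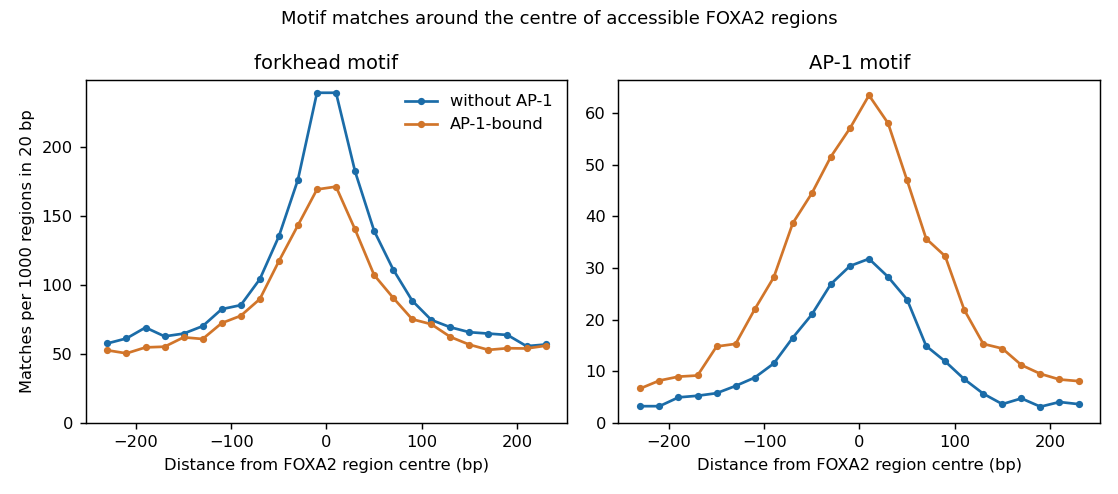
Matches of the forkhead motif (left) and of the AP-1 motif (right) per 1000 regions in 20 bp bins, plotted against the distance in bp of the match from the centre of the FOXA2 region, for 9932 FOXA2-only regions (blue) and 9163 AP-1-bound regions (orange). Forkhead matches peak at 239 per 1000 in the members and 171 per 1000 in AP-1-bound regions, and AP-1 matches form a centred peak of 31.8 and 63.5 per 1000.

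Other motifs separated the members from AP-1-bound regions by less than 2 points. CAATAAA, a HOXB13-type motif, was found in 15.2% of members, 13.9% of AP-1-bound regions and 7.10% of windows 2 kb from the members. The CEBP motif TTGCNNAA stood at 16.9% against 10.9% in those windows, the RUNX motif TGTGGTT at 6.65% against 3.92% and the TEAD motif ACATTCC at 5.01% against 2.90%. The corresponding shares of all PC3 ATAC regions were 6.20%, 9.15%, 4.85% and 3.91%. TGCTGAC, a MAF motif, was less frequent in the members, at 3.41% against 4.91% (difference −1.5 points, interval −2.07 to −0.932). Each search covered 100 bp to either side of the centre and the reverse complement. The members had a median GC content of 36.3% over 201 bases, AP-1-bound regions 38.8% and all PC3 ATAC regions 48.3%.

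FOXA2-only regions carried lower median scores than AP-1-bound regions for FOXA2, ATAC and, where present, H3K27ac. The score is the deposited whole number, taken from its range to be the −log10 q-value of MACS2 times 10, so that a higher score is a firmer call. The median FOXA2 score was 128 in members (quartiles 76.8 and 220, range 13 to 2364) and 197 in AP-1-bound regions (quartiles 106 and 390). The median H3K27ac score was 174 against 354, and the median ATAC score differed more, at 324 (quartiles 159 and 633) against 1071 (598 and 1836). The median of all 210960 PC3 ATAC regions was 112, so that the members lay above the typical accessible region and below the AP-1-bound class. Members made up 88.3% of both classes together in the lowest of 5 equal bins of ATAC score (14 to 210) and 15.3% in the highest (1446 to 21193). Median widths were 306 and 353 bp. The members were nevertheless found again by independent PC3 FOXA2 lists almost as often as AP-1-bound regions. The 2 further FOXA2 ChIPs contained 96.0% and 93.7% of members and 97.5% and 96.3% of AP-1-bound regions, and 93.2% of members (interval 92.7 to 93.7) were in both, beside 90.4% of all vehicle regions. The difference from AP-1-bound regions in this share was −2.77 points (interval −3.41 to −2.14), and −0.595 points (−1.23 to 0.0362) after standardisation over FOXA2 score deciles. With ATAC score bins added it was 2.39 points (1.46 to 3.32). By ATAC score bin, however, the members were higher only in the lowest bin, at 91.4% against 77.2% of 447 AP-1-bound regions. They were lower in each of the other bins, with 94.7% against 98.0% in the highest. These 2 lists are long, with 77822 and 62714 regions.

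Forkhead number and accessibility ran in opposite directions among the members. From 0 to 1, 2 and 3 or more matches, the median FOXA2 score was 98, 127, 138 and 149, and the share found in both further FOXA2 ChIPs was 87.6%, 92.8%, 94.9% and 97.3%. Over the same groups the median ATAC score was 372, 355, 298 and 255, and H3K27ac was present at 51.2%, 50.2%, 46.4% and 40.6%. The lowest and highest of these H3K27ac shares had separate intervals (38.2 to 43.1 and 48.8 to 53.7). Members with most forkhead matches thus had the highest median FOXA2 score and the lowest median ATAC score and H3K27ac share. AP-1-bound regions showed the same order, with median ATAC scores of 1232, 1091, 982 and 826.

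**Figure D2:**
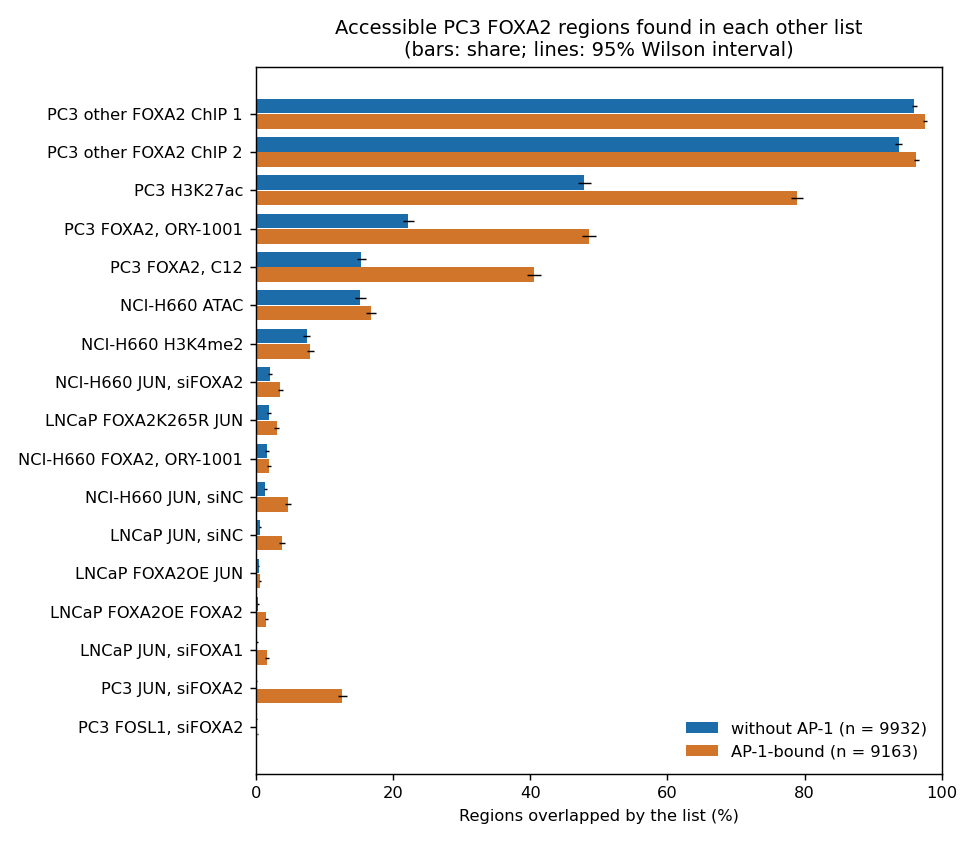
Share (%) of 9932 FOXA2-only regions (blue) and 9163 AP-1-bound regions (orange) overlapped by at least 1 bp in each of the 17 lists that the selection did not use, with lines for 95% Wilson intervals. The classes differ by 25 points or more for H3K27ac, ORY-1001 and C12 in PC3 and by at most 4 points in every list from NCI-H660 and LNCaP. Most shares in those lines are low in both classes, for example 0.574% and 3.83% for JUN in LNCaP after siNC.

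H3K27ac covered fewer of the FOXA2-only regions. In all, 4751 members (47.8%, interval 46.9 to 48.8) overlapped an H3K27ac region, against 78.9% of AP-1-bound regions and 58.7% of all vehicle FOXA2 regions. When H3K27ac had to cover at least 50% of the FOXA2 region, the share of members was 22.1%. The difference of −31.0 points (interval −32.3 to −29.7) was −13.6 points (−15.2 to −12) once FOXA2 score deciles and ATAC score bins were standardised together. Across the ATAC score bins, the members rose from 30.7% to 81.9% and AP-1-bound regions from 46.3% to 88.9%, and the members were lower in each bin. Within a bin the ATAC scores of the members remained somewhat lower, for example at a median of 2007 against 2250 in the highest. Acetylated members had a median ATAC score of 460, against 233 in members without H3K27ac, and 20.7% and 20.3% of them held an AP-1 motif, with overlapping intervals.

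After LSD1 inhibition few FOXA2-only regions were called again. Under ORY-1001, 2206 members (22.2%, interval 21.4 to 23.0) overlapped a FOXA2 region, against 48.6% of AP-1-bound regions and 36.8% of all vehicle regions, a difference of −26.4 points (interval −27.7 to −25.0). Under C12, 1532 members (15.4%, interval 14.7 to 16.1) did, against 40.6% of AP-1-bound regions and 29.6% of all vehicle regions, a difference of −25.2 points (interval −26.4 to −24.0). Both contrasts use the same vehicle list, and their doses differ, so they are given side by side only. The inhibitor lists were shorter than the vehicle list, at 13732 and 8352 regions against 24038, and a region that is not called again can be a weaker call in a shallower library as well as weaker binding, which cannot be told apart here. With only as many of the highest-scoring vehicle regions as the inhibitor list holds, the kept share of members was 35.2% (ORY-1001) and 41.0% (C12), and the differences from AP-1-bound regions were −26.3 points in both contrasts.

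The kept share of the members rose with the vehicle FOXA2 score, under ORY-1001 from 5.62% in the lowest decile of all vehicle regions (scores 13 to 52) to 66.9% in the highest (540 and above), and under C12 from 2.57% to 73.9%. AP-1-bound regions were kept more often in each of the 10 deciles under both inhibitors, from 17.7% to 84.0% under ORY-1001 and from 7.80% to 90.1% under C12. Standardised over these deciles the differences were −15.7 points (interval −16.9 to −14.4) under ORY-1001 and −12.5 points (−13.6 to −11.4) under C12. With ATAC score bins added to the strata they were −8.06 points (−9.62 to −6.51) and −9.10 points (−10.5 to −7.69). Under ORY-1001 the kept share of the members also rose over the ATAC score bins, from 11.9% to 48.6%, and that of AP-1-bound regions from 32.0% to 64.2%. Under C12 it rose from 8.84% to 32.4% in members and from 29.8% to 52.3% in AP-1-bound regions.

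**Figure D3:**
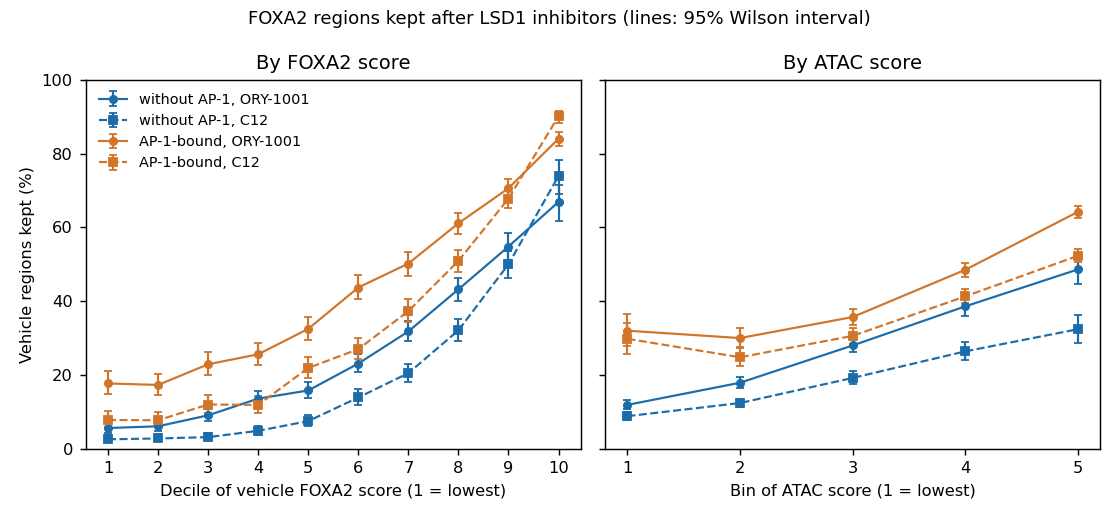
Share (%) of vehicle FOXA2 regions called again after ORY-1001 (circles, full lines) or C12 (squares, dashed lines) in FOXA2-only (blue) and AP-1-bound regions (orange), by decile of vehicle FOXA2 score (left) and by bin of ATAC score (right), with 95% Wilson intervals. Blue points lie below the orange points of the same inhibitor throughout, with 66.9% against 84.0% in the highest FOXA2 score decile under ORY-1001.

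Kept members were firmer, more open and more often acetylated than lost ones. Under ORY-1001 the 2206 kept members had a median vehicle FOXA2 score of 233 and a median ATAC score of 552, and 66.7% carried H3K27ac, whereas the 7726 lost members stood at 110, 277 and 42.5%. Under C12 the kept members stood at 297, 536 and 66.8%, and the 8400 lost ones at 114, 300 and 44.4%. The AP-1 motif was not more frequent in kept members, at 19.7% (18.1 to 21.4) of kept and 20.7% (19.8 to 21.7) of lost ones under ORY-1001. Under C12 it was less frequent in kept members, at 16.8% (15.1 to 18.8) against 21.2% (20.3 to 22.1). The forkhead motif was slightly more frequent in kept members under C12, at 86.7% (85.0 to 88.4) against 83.2% (82.4 to 84.0), with overlapping intervals under ORY-1001.

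Among AP-1-bound regions with a JUN call the kept share rose with the JUN score, and the members lay below the lowest of its 4 equal bins. From the lowest to the highest bin of JUN score, 31.3%, 43.5%, 51.8% and 67.1% were kept under ORY-1001 and 27.3%, 36.9%, 42.3% and 55.9% under C12. The median ATAC score rose alongside, from 620 to 2098, and the median FOXA2 score from 157 to 262, so that the part of JUN itself in this order was not tested. The forkhead motif fell over the same bins from 77.5% to 63.6% and the AP-1 motif rose from 28.1% to 51.4%. The members, with 83.8% and 20.5%, lay beyond the lowest bin for both motifs. They were selected to lack a JUN call, so their place below it for the AP-1 motif partly restates the selection.

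The gap between members and JUN regions varied widely and was not compared with that of other genome positions. The median gap from a member to the nearest siNC JUN region was 26189 bp (quartiles 8240 and 70656), and 517 members (5.21%) had one within 1 kb. H3K27ac was present at 76.4% of these 517 and at 33.7% of the 1674 members more than 100 kb from JUN, and the kept share under ORY-1001 was 30.8% and 17.6%. Between these groups H3K27ac did not fall evenly, at 49.9% from 1000 to 10000 bp and 51.6% from 10000 to 50000 bp. From the nearest to the farthest group the median FOXA2 score fell from 148 to 118 and the median ATAC score from 376 to 277. The part of distance itself was not tested. The AP-1 motif did not rise towards JUN regions, at 18.6% within 1 kb and 23.9% beyond 100 kb, and the forkhead motif stood between 82.0% and 84.6% at all distances. Just inside the selection, 57 members had a JUN region within 200 bp, with a median FOXA2 score of 139 and 31.6% kept under ORY-1001. Just outside it, 601 AP-1-bound regions overlapped JUN by 1 to 200 bp and lacked FOSL1, with a median FOXA2 score of 87 and 23.3% kept.

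After knockdown of FOXA2, the PC3 JUN list overlapped 12 members (0.121%), 12.6% of AP-1-bound regions and 8.57% of all vehicle regions. The FOSL1 list overlapped 8 members (0.0805%), 0.229% of AP-1-bound regions and 1.3% of all vehicle regions. The siFOXA2 lists were short, with 4081 and 1538 regions, and the members had been selected to lack these factors after siNC, so that the contrast with AP-1-bound regions largely restates the selection.

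In the other lines the members were mostly not called. NCI-H660 chromatin was accessible at 1513 members (15.2%, interval 14.5 to 16.0), against 16.8% of AP-1-bound regions and 22.6% of all vehicle regions, and carried H3K4me2 at 735 (7.4%) against 7.93% of AP-1-bound regions and 14.2% of all vehicle regions. JUN in NCI-H660 overlapped 140 members (1.41%) after siNC, against 4.75% of AP-1-bound regions and 8.4% of all vehicle regions. After siFOXA2 it overlapped 200 members (2.01%), against 3.54% and 5.29%. FOXA2 in NCI-H660 after ORY-1001 overlapped 163 (1.64%), against 11% of all vehicle regions, a low share that follows largely from the exclusion of NCI-H660 vehicle FOXA2 regions. In LNCaP, JUN overlapped 57 members (0.574%) after siNC, 16 (0.161%) after siFOXA1, 40 (0.403%) in FOXA2OE cells and 190 (1.91%) in FOXA2K265R cells, and 5.25%, 4.18%, 1.38% and 4.13% of all vehicle regions in the same order. The corresponding shares of AP-1-bound regions were 3.83%, 1.58%, 0.622% and 3.03%. FOXA2 in FOXA2OE cells overlapped 31 members (0.312%), 1.55% of AP-1-bound regions and 4.87% of all vehicle regions, in a list of 2500 regions. All vehicle regions include those shared with NCI-H660, which the members and AP-1-bound regions do not. Over all 22 lists, 166 members were found only in the vehicle FOXA2 and ATAC lists, 3580 in 4 lists, which was the most frequent number, and 6 in 13 lists, which was the highest number. No member reached the 17 lists that would mark a place called in nearly any library, whereas 12 AP-1-bound regions did. The selection kept the members out of the siNC PC3 JUN and FOSL1 lists and the NCI-H660 vehicle FOXA2 list. Their lack of such places therefore largely restates the selection.

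In the upper bins of PC3 ATAC score, however, the members were accessible in NCI-H660 more often than AP-1-bound regions. In the lowest bin the shares were 9.22% (interval 8.29 to 10.2) and 7.83% (5.68 to 10.7). In the next bin they were 11.2% (10.1 to 12.4) and 10.2% (8.55 to 12.2), so the intervals overlapped in both. Standardised over FOXA2 score deciles and ATAC score bins, the difference was 7.32 points (interval 5.97 to 8.67). It was −1.58 points before standardisation and −0.922 points (−2.01 to 0.167) over FOXA2 score deciles alone. In the highest ATAC score bin, 49.0% of 586 members and 24.7% of 3233 AP-1-bound regions were accessible in NCI-H660. Promoters made up 21% of these members and 3.56% of these AP-1-bound regions. Without promoters the shares were 36.7% (interval 32.5 to 41.2) and 23.3% (21.9 to 24.9).

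**Figure D4:**
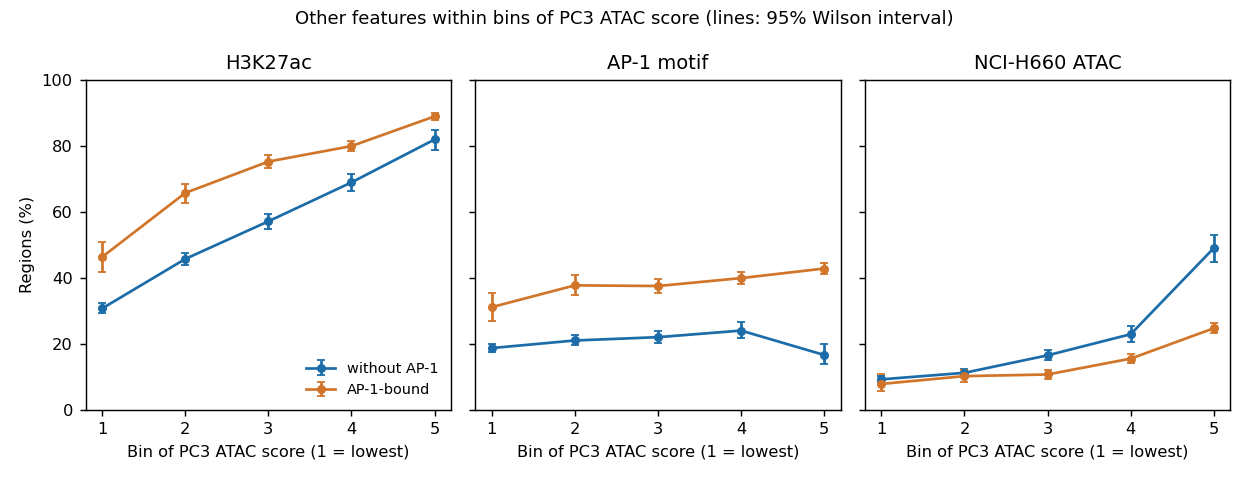
Share (%) of FOXA2-only (blue) and AP-1-bound regions (orange) that overlap H3K27ac in PC3 (left), hold an AP-1 motif within 100 bp of the centre (middle) or overlap an ATAC region of NCI-H660 (right), by bin of PC3 ATAC score, with 95% Wilson intervals. The members are lower for H3K27ac and the AP-1 motif in each bin and higher for NCI-H660 accessibility in the upper 3 bins, reaching 49.0% against 24.7%.

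By position, 48.2% of members were intergenic and 44.1% intronic with respect to protein-coding genes of GENCODE 44, 3.74% lay within 1 kb of a transcription start, 2.17% in coding exons and 1.86% in UTRs. The median distance to the nearest start was 54814 bp, against 56559 bp in AP-1-bound regions, and promoters held 9.84% of all PC3 ATAC regions. The 371 promoter members differed from the distal ones in the other lists. Of them 61.7% were accessible and 48.5% carried H3K4me2 in NCI-H660, against 12.9% and 5.31% of intergenic members, and 74.4% against 44.7% carried H3K27ac in PC3. They were kept in 35.6% (interval 30.9 to 40.6) under ORY-1001, against 21.5% of intergenic members, and in 16.7% (13.3 to 20.8) against 14.9% under C12. Their forkhead share was 78.4%, against 83.8%.

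The 10 members with the highest FOXA2 score were distal, 3 intergenic and 7 intronic, and 9 of them were kept under both inhibitors. The first, chr10:64385180-64385624, lay between genes, 145132 bp from ZNF365, and scored 2364 for FOXA2 in vehicle, 646 under ORY-1001, 1010 under C12, 3173 for ATAC and 683 for H3K27ac. An intronic member of CTNNA3, which encodes a catenin of cell junctions, chr10:68675734-68676220, scored 2298 in vehicle, but 45 and 103 under the inhibitors, with ATAC at 1174 and H3K27ac at 125. It is the member whose stretch above holds an AP-1 match shortly after the central forkhead match, and the nearest JUN region lay 5019 bp away. In an intron of MACROD2, a hydrolase of ADP-ribose on proteins, chr20:15477119-15477644 scored 2257 in vehicle, 1224 under ORY-1001, 900 under C12, 1950 for ATAC and 243 for H3K27ac. The scores within this group thus spread widely after treatment at similar vehicle values.

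Among the other top members, an intron of EPC1, a subunit of the NuA4 histone acetyltransferase complex, held chr10:32639700-32640139, which scored 2030 in vehicle, 693 under ORY-1001, 555 under C12 and 742 for ATAC without an H3K27ac region. In an intron of NEMF, a factor of ribosome-associated quality control, chr14:50316149-50316660 also lacked H3K27ac and scored 1827 in vehicle, 19 under ORY-1001 and 86 under C12. An intron of FUT8, the enzyme that adds core fucose to N-glycans, held chr14:66060792-66061207, which scored 1673 in vehicle and 2315 under ORY-1001, the only one of the 10 with a higher score under an inhibitor, and 968 under C12. This member was found in 10 lists, the most among the 10. In ANK3, which encodes ankyrin-G, chr10:62185123-62185579 lay 555 bp from a JUN region and scored 1722 in vehicle, 1106 under ORY-1001 and 695 under C12. The remaining kept members were intergenic and far from their nearest genes. The one 297512 bp from DDHD1, a phospholipase gene, scored 2040, 1417 and 672 for vehicle, ORY-1001 and C12. The one 279670 bp from ST3GAL1, a sialyltransferase gene, scored 1750, 299 and 413 in the same order. Scores of different lists depend on depth and are not measures of binding change.

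The highest-scoring member that neither inhibitor list contained was chr14:63267217-63267724 in an intron of KCNH5, a voltage-gated potassium channel gene. It scored 1868 in vehicle, 2670 and 1938 in the further FOXA2 ChIPs, 1531 for ATAC and 40 for H3K27ac, and held 4 forkhead matches. The next were chr1:200305526-200305993, 68074 bp from the zinc finger gene ZNF281, with 1531 in vehicle, an ANKRD45 intron, chr1:173618314-173618810, with 1446, chr3:108267662-108268154, 556 bp from CIP2A, which encodes an inhibitor of the phosphatase PP2A, with 1354, and chr5:157213625-157214082 in the UTR of CLINT1, an adaptor of clathrin-coated vesicles, with 1080. All 5 were in both further vehicle FOXA2 ChIPs, with scores between 1788 and 3146, and each held at least 2 forkhead matches. Their H3K27ac scores were 40, 392, 43 and 249, and the CLINT1 member had no H3K27ac region. These 5 show that members with a high vehicle score and repeated forkhead letters were not all called again.

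Of 10 genes that the study examined individually, 3 (30%) had a member within 50 kb: CCBE1, TP63 and CDK1. This share was close to the 33.9% of all protein-coding genes. In an intron of CCBE1, a secreted factor of lymphatic growth, chr18:57357348-57357732 scored 423 in vehicle, 75 under ORY-1001, 163 under C12, 247 for ATAC and 896 for H3K27ac. In an intron of TP63, the p53 family gene of basal epithelium, chr3:189433970-189434277 scored 162 in vehicle, 55 for ATAC and 114 for H3K27ac and was in neither inhibitor list. The member 6799 bp from the mitotic kinase gene CDK1, chr10:62561410-62561731, scored 300 in vehicle, 123 for ATAC and 92 for H3K27ac and was in neither. CEP55, INCENP, NDC80, ERCC6L, WNT7A, FOSL1 and PTHLH had none. AP-1-bound regions did lie within 50 kb of CEP55 (5), NDC80 (2), PTHLH (2), ERCC6L (1) and WNT7A (1).

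At least 1 member lay within 50 kb of 6618 of 19548 protein-coding genes (33.9%), and at least 3 members of 925 (4.73%). A gene near a region is not shown to be its target, and long genes collect more regions. Among gene lists chosen for these lines, basal epithelial genes had a member at 13 of 20 (65.0%), mesenchymal genes at 14 of 24 (58.3%), branching and developmental signalling genes at 14 of 28 (50%) and TEAD targets at 8 of 16 (50%). Neuroendocrine genes had a member at 3 of 20 (15%), AP-1 subunits at 3 of 14 (21.4%), endoderm and liver genes at 6 of 21 (28.6%), luminal and androgen receptor genes at 7 of 20 (35.0%) and LSD1 and CoREST genes at 6 of 14 (42.9%). At least 3 members occurred at 8 of 28 developmental signalling genes (28.6%) and at 5 of 16 TEAD targets (31.2%), and at no gene of the neuroendocrine, luminal, AP-1, endoderm or LSD1 lists. AP-1-bound regions lay at the same lists: 24 beside 20 members at basal genes, 21 beside 22 at mesenchymal genes, 65 beside 47 at developmental signalling genes and 26 beside 21 at TEAD targets. At luminal genes 5 lay beside 8 members, and at LSD1 and CoREST genes 2 beside 8. Neighbouring genes can share a region, which is then counted for each, as with CAV1 and CAV2. Promoter or enhancer function of these members was not measured.

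Among the developmental signalling genes, NRP1, a co-receptor of semaphorins and VEGF, had 8 members, of which 4 were kept under ORY-1001, 3 under C12 and 6 carried H3K27ac, and all 8 held a forkhead motif. At 3.09 per 100 kb of gene and flanks it was the densest of the genes named here, and 13 AP-1-bound regions lay in the same span. ROBO1, a receptor of SLIT ligands, also had 8 members but over a much longer span, at 0.630 per 100 kb, none of them kept under either inhibitor. SEMA3A, a secreted guidance ligand that signals through NRP1, had 7 members, 1 kept under ORY-1001 and 3 under C12. GLI3, a transcription factor of hedgehog signalling, had 4 members.

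Among TEAD-linked genes, YAP1, the coactivator that partners TEAD factors, had 4 members, all with H3K27ac, and CCN1, a secreted YAP target, had 3 at 2.89 per 100 kb. PTPN14, a phosphatase that restrains YAP, and TEAD1 each had 3. In the basal list CAV2, a caveolin, had 4 members and TP63 had 3, and in the mesenchymal list the regulators TWIST1 and ZEB2 each had 3 members and no AP-1-bound region within 50 kb. None of those 6 TWIST1 and ZEB2 members was kept under either inhibitor, and 5 of them carried H3K27ac. THBS1, which encodes thrombospondin, had 3. HOXB13, a prostate homeobox factor, and FOXA2 itself had 2 members each, TMPRSS2, an androgen-regulated protease, had 1 with a score of 743 that was kept under both inhibitors, and JUN had none.

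**Figure D5:**
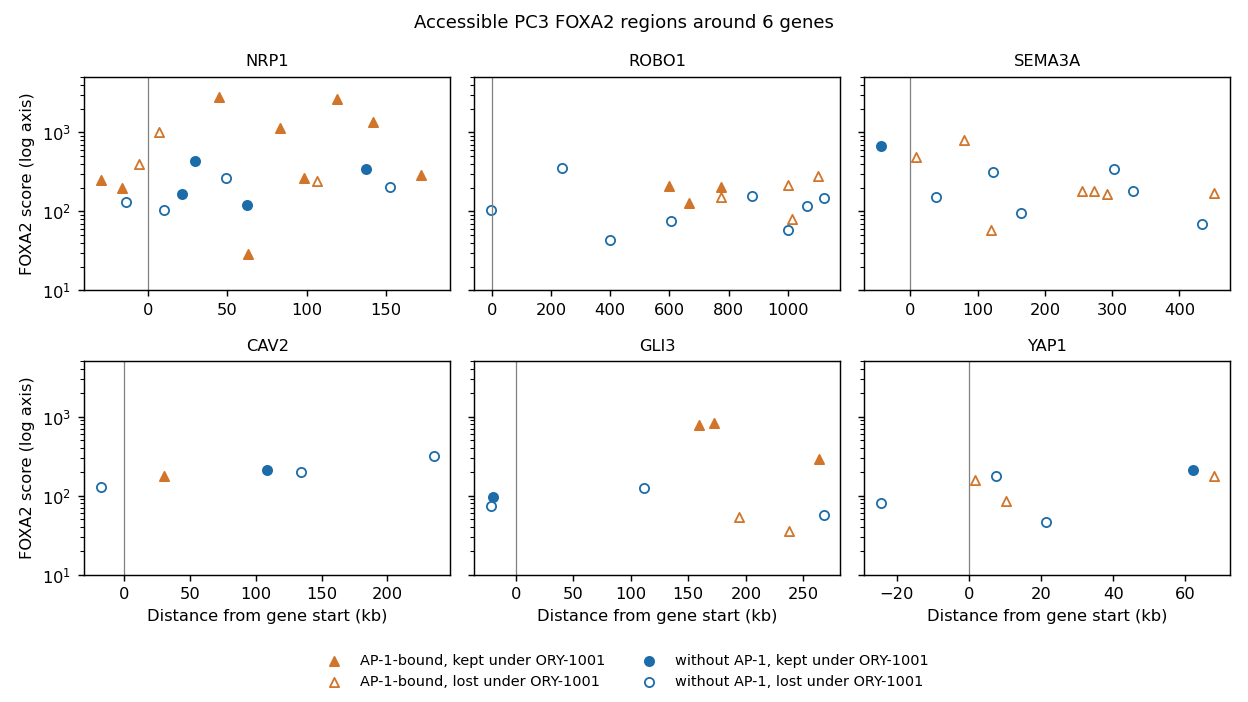
FOXA2 score in vehicle (log axis) of FOXA2-only (circles) and AP-1-bound regions (triangles) within 50 kb of NRP1, ROBO1, SEMA3A, CAV2, GLI3 and YAP1, the listed genes with at least 4 members. Scores are plotted against the distance in kb of the region's centre from the gene's start (positive into the gene). Symbols are filled where the region was called again under ORY-1001. Accessible regions shared with NCI-H660 are left out. NRP1 has 8 members among 13 AP-1-bound regions, and the 8 members of ROBO1 are all unfilled. The AP-1-bound region of NRP1 with a score of 12604 lies above the axis and is not drawn.

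By number alone, the 15 genes with most members were very long genes. ZFPM2, a cofactor of GATA factors, led with 21 members over 1314 kb of gene and flanks, followed by CNTNAP2, a neurexin-family adhesion gene, with 16 over 2405 kb and ROBO2, another SLIT receptor, with 14 over 1843 kb. Of the 21 ZFPM2 members, 3 were kept under ORY-1001, 3 under C12 and 13 carried H3K27ac. The others were PRKG1 with 14, CTNNA3 with 13, MACROD2 with 12, RAD51B, PCDH9, LRP1B and CNBD1 with 11 each, LPP, HDAC9 and NPAS3 with 10 each, and CDK6 and DLG2 with 9 each. CDK6, a cell cycle kinase gene, was the shortest of them and held 2.71 members per 100 kb, against 0.396 to 1.60 in the other 14. LRP1B and CNBD1 had no member that ORY-1001 kept.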

How the data were processed

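The authors performed ChIP-seq with formaldehyde-fixed, sonicated chromatin and ATAC-seq, aligned reads to hg19 and, per the submitters' processing notes, used FastQC 0.11.9, BWA 0.7.17-r1188, SAMtools 1.9 and MACS2 2.1.4. They deposited 22 lists of intervals, 20 with a score column. The deposited score is a whole number, which by its range (13 upwards in the vehicle list) appears to be the MACS2 −log10 q-value times 10. The LNCaP siNC JUN and FOXA2OE FOXA2 lists deposited only intervals (other columns), without a score. Pooling of libraries, control libraries and MACS2 settings are not given in the sources used here. The authors' siNC JUN, FOSL1 and ATAC lists belong to processing folders other than that of the FOXA2 lists. Whether these folders reflect experimental batches is not known, so any batch difference and factor cannot be told apart where lists are overlapped.

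Groups were taken from the labels. Regions were overlapped at 1 bp with Python 3.11.15, numpy 2.4.6, pandas 2.3.3 and pysam 0.24.0. On simulated data the overlap code was checked against bedtools, and the motif search only by its recovery of planted forkhead motifs. FOXA2 regions were ranked into 10 score deciles over the whole vehicle list, and members with AP-1-bound regions into 5 equal bins of ATAC score. Differences of shares carry Newcombe intervals. Standardised differences weight the strata by their number of regions and carry normal-approximation intervals. Shares carry Wilson intervals at a confidence level of 95%. Motifs were searched on both strands in 201 bases around the centre, with windows 2 kb to each side and all PC3 ATAC regions as background. Bases came from GRCh37, whose chromosome names and lengths fit the regions, and genes from GENCODE 44 for that build. A promoter was 1 kb on either side of a protein-coding start, and a gene's surroundings were 50 kb on either side.

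Named members were the 10 with the highest FOXA2 score, the 5 highest kept and the 5 highest lost under both inhibitors, and the highest within 50 kb of each of 10 genes of the study. Named genes were the 15 with most members and the first 4 of each gene list, not all of which are reported here. The members and lists were chosen with earlier results of these data known.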

Additional observations from a re-analysis of the deposited data

How the results depend on the processing

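Members numbered 9932, and between 8977 and 10954 under the other definitions (overlap of at least 50%, a FOXA2 score of at least 50, no JUN or FOSL1 region within 1 kb, or no exclusion of NCI-H660 regions). No member was in 17 or more lists, which the selection itself made unlikely, so leaving out such places left the members as they were. An overlap of at least 50% of the FOXA2 region in each list gave 23.8% kept under ORY-1001, 16.7% under C12, 51.3% with H3K27ac and 82.9% with a forkhead motif. A FOXA2 score of at least 50 gave 24.0% kept under ORY-1001, 16.8% under C12, 85.4% with a forkhead motif and 95.1% in both further FOXA2 ChIPs. Requiring no JUN or FOSL1 region within 1 kb gave 46.2% with H3K27ac. Equal numbers of highest-scoring regions gave 35.2% kept under ORY-1001 and 41.0% under C12. H3K27ac over at least 50% of the region gave 22.1%. Motifs within 250 bp were found in 93.3% (forkhead) and 27% (AP-1) of members, and the forkhead excess over AP-1-bound regions was smaller in that window. With either further FOXA2 ChIP left out, 93.7% to 96.0% of members were in the remaining one.

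The difference in kept share from AP-1-bound regions was −15.7 points under ORY-1001 and −12.5 under C12 over FOXA2 score deciles, and −8.06 and −9.10 with ATAC score bins added. That last setting, chosen after seeing the data, also gave −13.6 points for H3K27ac. Under it the differences in overlap with NCI-H660 ATAC (−1.58 to 7.32 points) and with both further FOXA2 ChIPs (−2.77 to 2.39) changed sign. The kept-share, H3K27ac and motif differences kept theirs. By ATAC score bin, the members exceeded AP-1-bound regions for both further FOXA2 ChIPs only in the lowest bin. For NCI-H660 ATAC the intervals were separate only in the upper bins. No paired analysis was possible because the compared groups hold 1 list each. The lists give no depth, so a region that is absent from a list was not detectable there, not shown to be unbound.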

Other observations

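Of the 10 members with the highest FOXA2 score, 4 lay on chromosome 10 and 4 on chromosome 14, chromosomes that hold 467 and 394 of the 9932 members. This was noticed after the values were seen. The highest FOXA2 score decile held 5.46% (interval 4.13 to 7.18) of the members on these chromosomes and 3.37% (3.02 to 3.77) of those on the others, and 22.1% (19.6 to 24.8) and 14.4% (13.7 to 15.2) of AP-1-bound regions. Median ATAC scores of members were 399 and 321, and median scores in the further FOXA2 ChIPs were 455 and 438 for the first and 321 and 320 for the second. This is not particular to the pair: the share of members in that decile was 4.71% on chromosome 10 and 6.35% on chromosome 14, and it was 6.92% on chromosome 17 and 5.88% on chromosome 21. DNA copy number was not measured.

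The share of members among accessible regions of both classes was 62.8% (interval 58.9 to 66.6) on chromosome X and 45.9% (41.0 to 50.8) on chromosome 20. On chromosome X, 16.6% of members were kept under ORY-1001 and 39.2% carried H3K27ac, against 36.1% and 59.6% on chromosome 20. These chromosomes were singled out after the values were seen, as those with the highest share and the lowest among the chromosomes with at least 50 members.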
